A study of Mus musculus with 22 samples.

Results

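The genes of cholesterol and fatty acid metabolism were followed in the hypothalamus of mice that carried Lewis lung carcinoma. The gene set was a list of 41 symbols of the pathway, chosen with earlier results of these data known. Its shares beside those of all genes are therefore description, and no test was made over the list. For 39 of the symbols an array probe set (a group of probes read as one value) was paired with that gene alone, out of 18820 genes named in the table. Acat2 and Nr1h2 were not analysed here. Where a gene had more than 1 probe set, the one brightest on average was used. The measured genes were 17 enzymes of sterol synthesis, 6 genes of sterol sensing and transport, 9 enzymes of fatty acid synthesis, and 7 genes of cholesterol efflux, oxysterols and lipoproteins.

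The series title concerns food intake and hypothalamic serotonin signalling in cachectic tumour-bearing mice. All 22 mice were male C57BL/6, and the series text gives an age of 6 weeks at inoculation. Tumour-bearing mice received 500000 Lewis lung carcinoma cells, a transplantable mouse tumour, in the muscle of a hind leg. The hypothalamus was taken on day 10 from 5 tumour-bearing mice, on day 14 from 7, on day 17 from 6, and on day 14 from 4 control mice, with 1 array for each mouse. The labels do not say what the controls received in place of tumour cells. Since controls came from day 14 alone, the comparisons of days 10 and 17 also hold a difference in day, and all comparisons with control share the same 4 mice.

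Cells make cholesterol from acetyl-CoA through mevalonate, squalene and lanosterol. When sterols in the endoplasmic reticulum are low, Scap carries the transcription factors Srebf1 and Srebf2 to the Golgi, where they are cleaved and then switch on genes of sterol and fatty acid synthesis. Insig proteins hold Scap back when sterols are plentiful. The brain makes nearly all of its own cholesterol, much of it for myelin, and disposes of it as oxysterols, while liver X receptors (Nr1h2, Nr1h3) sense oxysterols and raise the exporters Abca1 and Abcg1.

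Promoters of some genes of the set are shown first, since transcription factors such as those above act at promoters. RefSeq promoter windows of the build GRCm38.p6, from 250 bases before to 50 bases after the annotated start, were found for 30 of the 39 genes. Motifs were searched on both strands. Those marked below were CCAAT, the box bound by NF-Y, a partner of the Srebf factors, and TCACNCCA, a core of the sterol regulatory element. CACGTG, an E-box that Srebf factors can also bind, was marked as well. The full sterol regulatory element and the GC box bound by Sp1 were also searched but are not marked. The genes printed are Cyp51 (chr5:4104648-4104947, minus strand), Sc5d (chr9:42264251-42264550, minus strand), Dhcr7 (chr7:143829964-143830263, plus strand), Hmgcs1 (chr13:119690101-119690400, plus strand), Elovl5 (chr9:77917115-77917414, plus strand) and Ch25h (chr19:34475099-34475398, minus strand). Cyp51, Sc5d, Dhcr7, Elovl5 and Ch25h passed the expression test on day 17. Fads1, Scd1 and Tm6sf2 also passed, but no window was found for them. Hmgcs1 did not pass. It is the first enzyme of the list and 1 of the 2 sterol synthesis genes whose window held TCACNCCA. Each printed sequence runs 5′ to 3′ in the direction of the gene. Capitals mark matches to CCAAT, TCACNCCA and CACGTG on either strand, so that a CCAAT box on the other strand reads ATTGG.
Cyp51: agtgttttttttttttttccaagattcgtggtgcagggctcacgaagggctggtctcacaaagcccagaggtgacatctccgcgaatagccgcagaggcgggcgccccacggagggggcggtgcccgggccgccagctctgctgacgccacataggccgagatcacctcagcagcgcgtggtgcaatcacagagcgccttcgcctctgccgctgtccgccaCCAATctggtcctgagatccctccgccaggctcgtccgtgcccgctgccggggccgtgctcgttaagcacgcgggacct
Sc5d: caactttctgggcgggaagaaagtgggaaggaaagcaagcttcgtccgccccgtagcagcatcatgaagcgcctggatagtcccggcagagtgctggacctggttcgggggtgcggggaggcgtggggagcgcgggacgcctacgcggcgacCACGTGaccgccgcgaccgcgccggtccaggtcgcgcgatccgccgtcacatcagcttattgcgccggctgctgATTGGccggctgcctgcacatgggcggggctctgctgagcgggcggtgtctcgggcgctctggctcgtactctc
Dhcr7: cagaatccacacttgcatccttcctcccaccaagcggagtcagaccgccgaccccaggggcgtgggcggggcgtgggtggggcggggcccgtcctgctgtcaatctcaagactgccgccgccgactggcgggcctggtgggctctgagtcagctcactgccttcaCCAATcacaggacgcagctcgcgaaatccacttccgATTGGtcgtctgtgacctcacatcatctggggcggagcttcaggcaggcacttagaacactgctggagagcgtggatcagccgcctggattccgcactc
Hmgcs1: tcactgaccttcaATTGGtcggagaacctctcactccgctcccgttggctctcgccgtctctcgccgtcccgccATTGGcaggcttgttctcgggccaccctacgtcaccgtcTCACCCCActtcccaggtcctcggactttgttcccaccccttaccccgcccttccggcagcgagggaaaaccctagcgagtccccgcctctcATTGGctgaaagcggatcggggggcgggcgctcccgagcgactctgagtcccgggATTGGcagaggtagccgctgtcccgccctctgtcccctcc
Elovl5: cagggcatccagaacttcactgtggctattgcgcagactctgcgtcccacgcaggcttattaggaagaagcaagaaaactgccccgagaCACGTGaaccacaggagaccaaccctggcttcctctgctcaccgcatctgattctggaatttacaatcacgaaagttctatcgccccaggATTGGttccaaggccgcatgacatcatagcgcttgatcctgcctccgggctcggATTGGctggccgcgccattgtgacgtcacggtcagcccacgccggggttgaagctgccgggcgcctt
Ch25h: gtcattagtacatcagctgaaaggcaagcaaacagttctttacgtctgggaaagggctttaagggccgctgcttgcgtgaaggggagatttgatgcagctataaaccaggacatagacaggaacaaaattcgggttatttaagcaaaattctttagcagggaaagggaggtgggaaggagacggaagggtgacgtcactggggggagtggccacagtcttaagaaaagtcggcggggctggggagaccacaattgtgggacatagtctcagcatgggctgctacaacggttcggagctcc
The Ch25h window held no match to these letters. Dhcr7 had 3 windows, and the one printed was picked because it alone held CCAAT. It lies inside the gene, past the starts of its other windows.

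The CCAAT box was found in 14 of the 14 sterol synthesis genes with a window, against 41.1% of 27025 genes with a window and 42.3% of the 10899 of them whose expression lay above background. Counted by window it was 14 of 17, against 37.4% of all windows and 36.9% of those of genes above background. In the 14 sterol synthesis genes 32 matches lay between -237 and 34 bases from the start, with a median of -55. Among sterol sensing genes 4 of 5 held CCAAT, among fatty acid synthesis genes 3 of 6, and among efflux and oxysterol genes 1 of 5. TCACNCCA was found in Hmgcs1, Msmo1, Srebf2 and Apoe, 4 of the 30 genes with a window, against 4.97% of all genes and 4.59% of those above background. CACGTG was found in Hsd17b7, Sc5d, Dhcr7, Insig1, Scap, Elovl5 and Abca1, 7 of the 30 genes with a window, against 8.09% of all genes and 11.2% of those above background. The full sterol regulatory element was found in 0 of 14 sterol synthesis, 0 of 5 sensing, 0 of 6 fatty acid and 0 of 5 efflux genes. Its share was 0.270% of all genes and 0.229% of those above background. The GC box was found in 13 of 14, 5 of 5, 2 of 6 and 2 of 5 genes of these roles. Its share was 38.2% of all genes and 66.1% of those above background. All of these are letter matches in short windows, not measured binding.

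**Figure D1:**
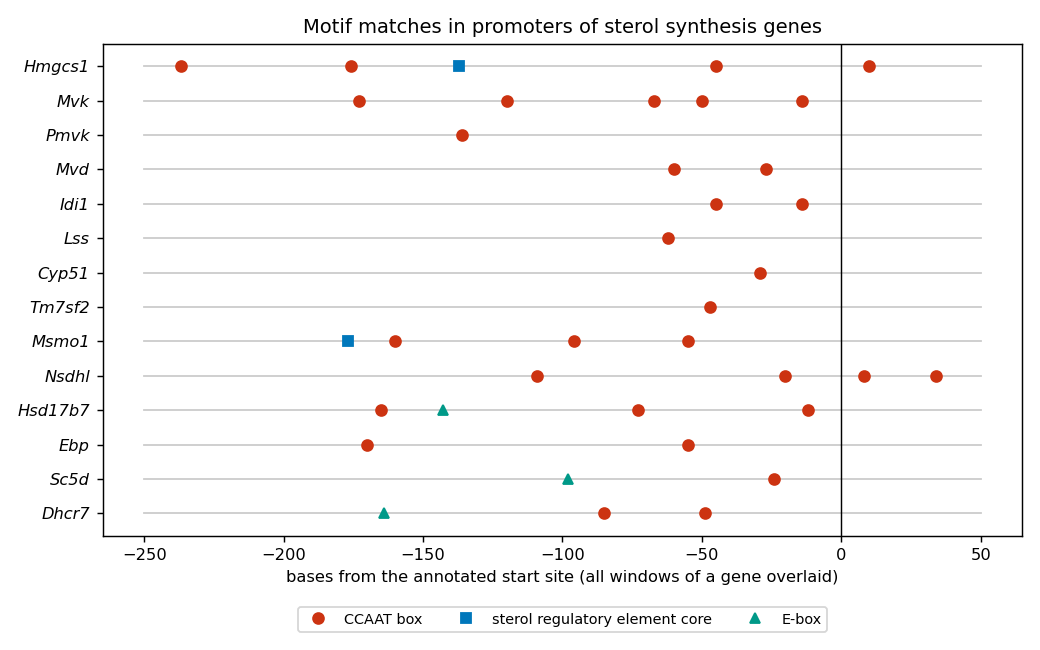
Positions of CCAAT (circles), TCACNCCA (squares) and CACGTG (triangles) in the promoter windows of the 14 sterol synthesis genes with a window; the horizontal axis is the distance in bases from the annotated start, and each line spans the window. Every line carries a circle, and 2 lines carry a square, those of Hmgcs1 and Msmo1.

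The tissue label was checked with neuropeptide and transcription factor genes of the hypothalamus. Of 14 measured, 13 had a mean above the background measure of 3.87 on the log2 scale, and their mean lay between 7.68 and 8.08 on every array. Array medians over all probe sets lay between 5.27 and 5.34. All 39 genes of the set had a mean over all arrays above the background measure, so none was left out as too low. Ch25h passed only through its tumour groups, since all of its controls lay below that measure. The tissue was measured in bulk, so fewer cells of a type and less RNA per cell cannot be told apart.

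On day 17 every measured gene of sterol and fatty acid synthesis had a lower mean in tumour-bearing mice than in controls, and 6 of them passed the test. At a Benjamini-Hochberg adjusted p below 0.05 in limma, 7 of the 39 genes fell (Cyp51, Sc5d, Dhcr7, Fads1, Scd1, Elovl5 and Tm6sf2) and 1, Ch25h, rose. Over all 18820 genes 0.685% fell and 0.436% rose by the same rule. On days 10 and 14, 0 of the 39 passed, where 0.00531% and 0.0213% of all genes fell and 0.101% and 0.197% rose. The F test for any difference among the 4 groups called Cyp51 and Ch25h, against 0.335% of all genes. Leaving out 1 array at a time gave between 1 and 14 genes on day 17, with 1 when control replicate 2 and 14 when tumour day 17 replicate 6 was left out.

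More genes of the set lay past the unadjusted p of 0.05 than were called. In limma 8 of 39 were lower by that rule on day 10, 25 on day 14 and 24 on day 17, against 5.43%, 6.18% and 10.5% of all genes. Higher values past that p were found for 2, 2 and 3 genes, against 5.27%, 4.28% and 6.13%. Among the 13790 genes above background, 7.14%, 7.97% and 13.8% were lower by this rule. Values of tumour-bearing mice all lay below every control for 6, 5 and 14 of the 39 genes on the respective days, against 2.24%, 1.06% and 3.3% of all genes, and all above for 2, 2 and 1, against 2.21%, 0.776% and 1.66%. Among genes above background 2.97%, 1.4% and 4.4% lay wholly below the controls.

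**Figure D2:**
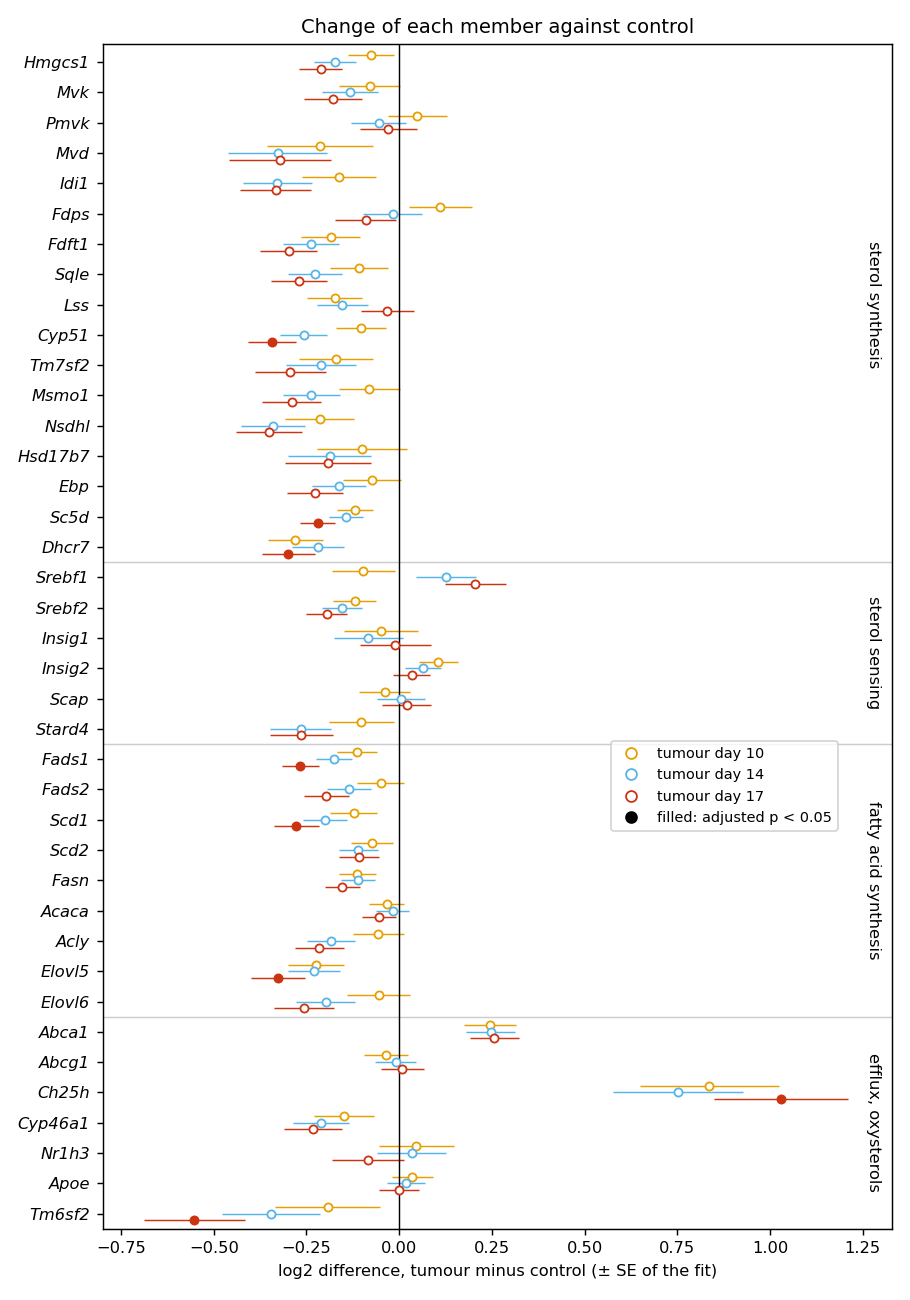
Log2 difference of each of the 39 genes from control (horizontal axis, with the standard error of the fit) on days 10, 14 and 17, grouped by role; filled points passed an adjusted p of 0.05. All points of the 9 fatty acid synthesis genes lie left of 0, as do all day 17 points of the 17 sterol synthesis genes, while Ch25h lies to the right, at fitted values whose control group is below the background measure.

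The enzymes of sterol synthesis had lower means in tumour-bearing mice nearly throughout, while few of them passed the adjusted test. Of the 17 measured, 15 had a lower mean than control on day 10, 17 on day 14 and 17 on day 17, where 49.7%, 52% and 53.7% of all genes, and 59.4%, 59.1% and 63% of genes above background, had a lower mean. The median log2 difference from control was -0.11, -0.21 and -0.27 on the respective days, and that of genes above background was -0.02, -0.02 and -0.03. On day 17, 3 of the 17 passed the adjusted test and 13 the unadjusted p of 0.05. On days 10 and 14, 0 passed the adjusted test, and 5 and 13 the unadjusted p. The shares of all genes by these rules are those given for the 39.

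Cyp51, the demethylase that takes lanosterol into the cholesterol branch, showed the smallest adjusted p among the sterol enzymes on day 17. Its log2 values in the controls were 7.82, 7.92, 7.87 and 7.81, and on day 10 7.85, 7.52, 7.78, 7.79 and 7.81. On day 14 they ran from 7.43 to 7.75 with a median of 7.59, and on day 17 from 7.40 to 7.57 with a median of 7.52. All 13 tumour-bearing mice of days 14 and 17 lay below every control, while on day 10 the groups overlapped and 1 mouse lay far below the other 4. The log2 difference from control (± SE of the fit) was -0.10 ± 0.07 on day 10, -0.26 ± 0.06 on day 14 and -0.34 ± 0.06 on day 17, the last equal to a change of -21.1% with a 95% interval on the log2 scale from -0.48 to -0.21. The adjusted p in limma was 0.604, 0.0929 and 0.0114 on the respective days, and 0.0318 in the F test.

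Sc5d and Dhcr7 encode enzymes of the last steps, a desaturase and the reductase that completes cholesterol. Sc5d values were 8.94, 8.88, 8.79 and 8.81 in the controls and 8.76, 8.68, 8.75, 8.70 and 8.81 on day 10, and ran from 8.63 to 8.84 with a median of 8.71 on day 14 and from 8.59 to 8.69 with a median of 8.64 on day 17. All day 17 mice lay below every control, and the other days overlapped the controls. The Sc5d difference was -0.12 ± 0.05 on day 10, -0.14 ± 0.05 on day 14 and -0.22 ± 0.05 on day 17, with an adjusted p in limma of 0.395, 0.224 and 0.0263. Dhcr7 values were 8.31, 7.93, 7.93 and 8.00 in the controls and 7.78, 7.73, 7.77, 7.82 and 7.71 on day 10, and ran from 7.67 to 7.99 with a median of 7.83 on day 14 and from 7.60 to 7.79 with a median of 7.78 on day 17. All mice of days 10 and 17 lay below every control, and control replicate 1 stood above the other 3 controls. The Dhcr7 difference was -0.28 ± 0.07 on day 10, -0.22 ± 0.07 on day 14 and -0.30 ± 0.07 on day 17, with an adjusted p in limma of 0.174, 0.221 and 0.0414. Without control replicate 1 the day 17 difference was -0.21.

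The other sterol enzymes did not pass the adjusted test, and their day 17 differences ran from -0.35 to -0.03. The early steps were Hmgcs1, which makes HMG-CoA (-0.21 ± 0.06), the mevalonate kinase Mvk (-0.18 ± 0.08), the phosphomevalonate kinase Pmvk (-0.03 ± 0.08), the decarboxylase Mvd (-0.32 ± 0.14), the isomerase Idi1 (-0.33 ± 0.10) and the farnesyl diphosphate synthase Fdps (-0.09 ± 0.08). A further Idi1 probe set gave -0.29 ± 0.09. Squalene synthase Fdft1 stood at -0.30 ± 0.08, squalene epoxidase Sqle at -0.27 ± 0.08 and lanosterol synthase Lss at -0.03 ± 0.07. After lanosterol, the sterol reductase Tm7sf2 stood at -0.29 ± 0.10, Msmo1, Nsdhl and Hsd17b7, which remove methyl groups, at -0.29 ± 0.08, -0.35 ± 0.09 and -0.19 ± 0.12, and the isomerase Ebp at -0.23 ± 0.07.

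Within the pathway the differences were unequal. Pmvk, Fdps and Lss had the smallest day 17 differences, and Lss was the only sterol enzyme of the 17 with a higher mean on day 17 than on day 10 (by 0.14 ± 0.07, adjusted p in limma 0.591). Nsdhl, Cyp51, Idi1 and Mvd had the largest. The adjusted p of Nsdhl on day 17 was 0.0563 in limma and that of Fdft1 0.0626, just outside the threshold, while Dhcr7, at 0.0414, was just inside. Day 17 mice lay below every control for Fdft1, Cyp51, Msmo1, Nsdhl, Sc5d and Dhcr7.

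Each mouse was also taken alone. The number of the 17 sterol enzymes below the lowest control ran from 5 to 11 per mouse on day 10 (median 9), from 4 to 17 on day 14 (median 13) and from 11 to 15 on day 17 (median 12). As a share this was 29.4% to 64.7%, 23.5% to 100% and 64.7% to 88.2% on the respective days, where 23.0% to 31.1%, 20.5% to 36.4% and 26.8% to 41.2% of genes above background lay below their lowest control. The mice with the fewest sterol enzymes below were near their own share over genes above background: tumour day 14 replicate 6 had 23.5% against 20.5%, and tumour day 10 replicate 1 had 29.4% against 28.9%. Tumour day 14 replicate 4 had all 17 below. The median difference of the 17 genes from the control mean ran from -0.06 to 0.05 in the controls, -0.20 to -0.02 on day 10, -0.29 to -0.10 on day 14 and -0.33 to -0.18 on day 17. By this median day 10 mice overlapped the controls, and mice of days 14 and 17 did not. By the mean of the 17 genes day 14 overlapped too, since its highest mouse and the lowest control both stood at 7.71, while day 17 reached 7.63.

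**Figure D3:**
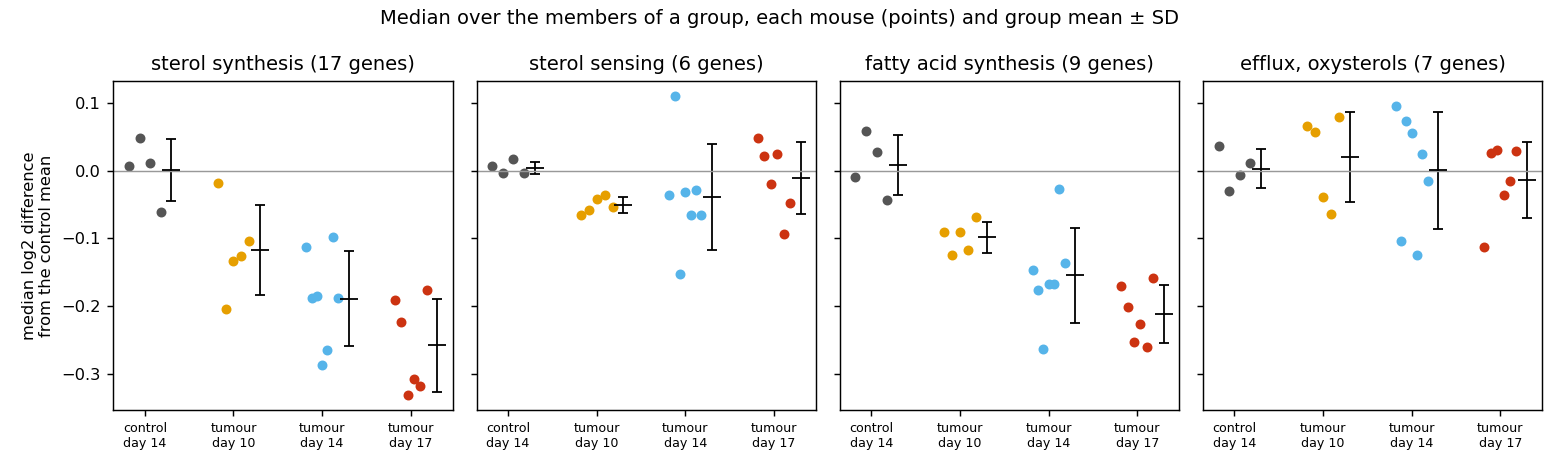
Median log2 difference from the control mean over the genes of each role (vertical axis), 1 point per mouse with the group mean ± SD in black, for control and tumour days 10, 14 and 17. For the 17 sterol synthesis genes the day 17 mice lie between -0.33 and -0.18, below the lowest control at -0.06.

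The fatty acid synthesis genes were lower in mean on all 3 days, in 9 of 9 on each. Of genes above background 59.4%, 59.1% and 63% were. The median difference was -0.07 on day 10, -0.18 on day 14 and -0.22 on day 17, against -0.02, -0.02 and -0.03. In limma 3, 8 and 7 of the 9 passed the unadjusted p of 0.05 as lower, against 7.14%, 7.97% and 13.8%. In the adjusted test 0, 0 and 3 passed, where 0.00531%, 0.0213% and 0.685% of all genes fell. The 3 that fell on day 17 were Fads1, Scd1 and Elovl5, enzymes that place double bonds in fatty acids or lengthen them.

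Fads1 is a desaturase of long polyunsaturated fatty acids. Its values were 10.49, 10.50, 10.43 and 10.41 in the controls and 10.33, 10.33, 10.39, 10.27 and 10.39 on day 10, and ran from 10.19 to 10.44 with a median of 10.28 on day 14 and from 10.11 to 10.30 with a median of 10.19 on day 17. All mice of days 10 and 17 lay below every control, and on day 14 replicate 6 alone lay within the control range. The difference was -0.11 ± 0.05 on day 10, -0.18 ± 0.05 on day 14 and -0.27 ± 0.05 on day 17, the last equal to a change of -16.9%, with an adjusted p in limma of 0.452, 0.156 and 0.0119. Its neighbour in the pathway, Fads2, stood at -0.20 ± 0.06 on day 17 (adjusted p in limma 0.113).

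Scd1 makes monounsaturated fatty acids from saturated ones. Its values were 10.53, 10.70, 10.56 and 10.54 in the controls and 10.45, 10.42, 10.55, 10.45 and 10.42 on day 10, and ran from 10.23 to 10.60 with a median of 10.37 on day 14 and from 10.17 to 10.41 with a median of 10.31 on day 17. All day 17 mice lay below every control, whereas days 10 and 14 each had 1 mouse within the control range. The difference was -0.12 ± 0.06 on day 10, -0.20 ± 0.06 on day 14 and -0.28 ± 0.06 on day 17, the last equal to a change of -17.5%, with an adjusted p in limma of 0.505, 0.192 and 0.0302. Scd2, the related desaturase abundant in brain, stood at -0.11 ± 0.05 on day 17 (adjusted p in limma 0.317).

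Elovl5 lengthens polyunsaturated fatty acids. Its values were 9.40, 9.47, 9.37 and 9.40 in the controls and 8.93, 9.16, 9.31, 9.21 and 9.32 on day 10, and ran from 9.01 to 9.40 with a median of 9.19 on day 14 and from 8.97 to 9.17 with a median of 9.10 on day 17. Days 10 and 17 lay wholly below the controls, and day 14 did so except for replicate 6. The difference was -0.23 ± 0.08 on day 10, -0.23 ± 0.07 on day 14 and -0.33 ± 0.07 on day 17, the last equal to a change of -20.3%, with an adjusted p in limma of 0.303, 0.212 and 0.0315.

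The enzymes that build the carbon chain did not pass the adjusted test. On day 17 Acly, which supplies acetyl-CoA from citrate, stood at -0.22 ± 0.07, fatty acid synthase Fasn at -0.15 ± 0.05 and the elongase Elovl6 at -0.26 ± 0.08. Acaca, the acetyl-CoA carboxylase that commits carbon to the pathway, stood at -0.05 ± 0.05, the smallest difference of the 9, and its other probe set at -0.08 ± 0.10. Acly and Fasn values of day 17 lay wholly below the controls, as did those of Acly on day 14 and of Fasn on day 10. Per mouse, 4 to 6 of the 9 genes lay below the lowest control on day 10, 1 to 8 on day 14 and 6 to 8 on day 17. As a share this was 44.4% to 66.7%, 11.1% to 88.9% and 66.7% to 88.9%, against the shares of genes above background given for the sterol enzymes. The lowest, 11.1%, was that of tumour day 14 replicate 6 and lay under the 20.5% of genes above background in that mouse.

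**Figure D4:**
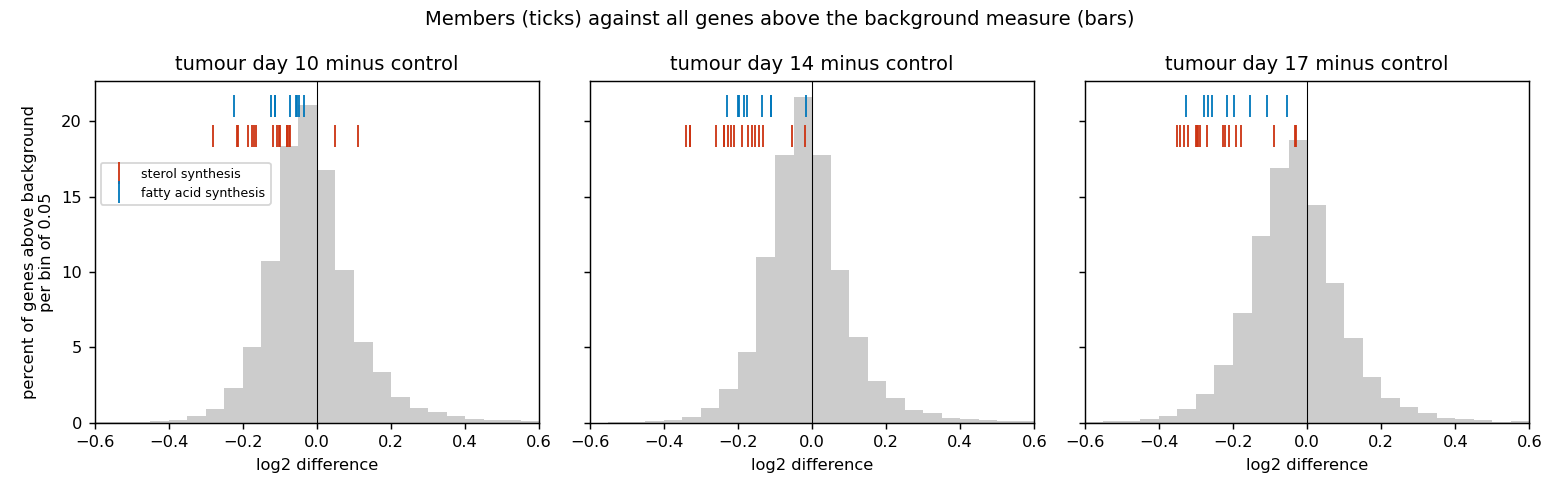
Distribution of log2 differences from control on days 10, 14 and 17 for the 13790 genes above background (bars, percent of genes per bin of 0.05), with the 17 sterol synthesis genes and the 9 fatty acid synthesis genes as ticks above. The medians of the sterol ticks lie at -0.11, -0.21 and -0.27, and those of all genes above background at -0.02, -0.02 and -0.03.

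The sterol sensing genes did not share 1 direction. Their median difference was -0.07 on day 10, -0.04 on day 14 and 0.01 on day 17, with 5, 3 and 3 of 6 lower in mean. By the adjusted test 0 passed on any day. In limma 0, 2 and 2 were lower and 0, 0 and 1 higher at an unadjusted p of 0.05. The shares of all genes by that rule are those given for the 39.

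Srebf2, the factor that mainly drives sterol synthesis genes, and Srebf1, which mainly drives fatty acid synthesis genes, had means on opposite sides of control on days 14 and 17. Srebf2 values were 8.90, 8.92, 8.92 and 8.89 in the controls and 8.84, 8.81, 8.73, 8.71 and 8.85 on day 10, and ran from 8.64 to 8.88 with a median of 8.75 on day 14 and from 8.58 to 8.83 with a median of 8.71 on day 17. All 18 tumour-bearing mice lay below every control. The difference was -0.12 ± 0.06 on day 10, -0.15 ± 0.05 on day 14 and -0.20 ± 0.06 on day 17, with an adjusted p in limma of 0.469, 0.294 and 0.0876. Srebf1 values were 7.13, 6.99, 6.81 and 6.85 in the controls and 6.64, 6.90, 7.08, 6.94 and 6.69 on day 10, and ran from 6.90 to 7.21 with a median of 7.06 on day 14 and from 6.98 to 7.26 with a median of 7.17 on day 17. On each day they overlapped the controls. The difference was -0.10 ± 0.09 on day 10, 0.13 ± 0.08 on day 14 and 0.20 ± 0.08 on day 17, with an adjusted p in limma of 0.714, 0.607 and 0.218. In the first run of accessions alone, with 1 control, the Srebf1 difference of day 17 was 0.046. Whether the 2 genes differed from each other in their response was not tested.

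Insig1 retains Scap in the endoplasmic reticulum and is itself a target of the Srebf factors. Its values were 8.98, 9.14, 9.0 and 9.12 in the controls and 9.0, 8.99, 8.79, 9.21 and 9.08 on day 10, and ran from 8.61 to 9.18 with a median of 9.04 on day 14 and from 8.82 to 9.19 with a median of 9.08 on day 17. All groups overlapped. The difference was -0.05 ± 0.10 on day 10, -0.08 ± 0.09 on day 14 and -0.01 ± 0.10 on day 17, with a 95% interval on day 17 from -0.21 to 0.19 and an adjusted p in limma of 0.890, 0.788 and 0.970. The related Insig2 stood at 0.11 ± 0.05 on day 10, 0.06 ± 0.05 on day 14 and 0.03 ± 0.05 on day 17, and its day 10 values lay wholly above the controls. Scap, the escort protein, stood at -0.04 ± 0.07 on day 10, 0.01 ± 0.06 on day 14 and 0.02 ± 0.07 on day 17.

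Stard4 carries cholesterol between membranes. Its values were 6.53, 6.48, 6.64 and 6.59 in the controls and 6.70, 6.45, 6.14, 6.49 and 6.51 on day 10, and ran from 6.11 to 6.46 with a median of 6.33 on day 14 and from 6.20 to 6.41 with a median of 6.29 on day 17. Days 14 and 17 lay wholly below the controls, and day 10 overlapped them with values on both sides. The difference was -0.10 ± 0.09 on day 10, -0.27 ± 0.08 on day 14 and -0.26 ± 0.08 on day 17, with an adjusted p in limma of 0.706, 0.213 and 0.122.

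The genes of efflux, oxysterols and lipoproteins moved in both directions. Their median difference was 0.04, 0.02 and -0.00 on days 10, 14 and 17, with 3, 3 and 4 of 7 lower in mean. On day 17 Ch25h rose and Tm6sf2 fell in the adjusted test, and the other 5 did not pass.

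Ch25h makes an oxysterol that holds back the Srebf pathway, and is known as an interferon-induced gene of macrophages. Its values were 3.41, 3.47, 3.45 and 3.74 in the controls and 4.38, 4.38, 3.62, 4.57 and 4.83 on day 10, and ran from 3.75 to 4.60 with a median of 4.41 on day 14 and from 4.30 to 4.86 with a median of 4.53 on day 17. All 4 controls lay below the background measure of 3.87, so the control level is only bounded. Values of 16 of the 22 arrays lay above it, and all mice of days 14 and 17 lay above every control, while 1 mouse of day 10 did not. The difference was 0.84 ± 0.19 on day 10, 0.75 ± 0.18 on day 14 and 1.03 ± 0.18 on day 17, with an adjusted p in limma of 0.106, 0.0818 and 0.00578 and of 0.0343 in the F test. With the controls set at the background measure, the level of day 17 was at least 1.60-fold higher. On day 10 values of 4 of 5 mice lay above that measure, and on day 14 of 6 of 7.

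Tm6sf2 takes part in the lipid loading of lipoproteins in liver and gut. Its values were 5.75, 5.70, 5.74 and 5.65 in the controls and 5.36, 5.69, 5.85, 5.39 and 5.29 on day 10, and ran from 5.10 to 5.61 with a median of 5.40 on day 14 and from 4.75 to 5.54 with a median of 5.14 on day 17. Days 14 and 17 lay wholly below the controls, while day 10 values lay on both sides. The difference was -0.19 ± 0.14 on day 10, -0.34 ± 0.13 on day 14 and -0.55 ± 0.14 on day 17, the last equal to a change of -31.8%, with an adjusted p in limma of 0.644, 0.345 and 0.0475. When each of the 22 arrays was left out in turn, the day 17 call was lost in 16 fits, with an adjusted p of up to 0.141.

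Abca1 exports cholesterol to lipoproteins. Its values were 7.29, 7.30, 7.29 and 7.42 in the controls and 7.58, 7.57, 7.46, 7.64 and 7.58 on day 10, and ran from 7.43 to 7.71 with a median of 7.52 on day 14 and from 7.38 to 7.77 with a median of 7.58 on day 17. All mice of days 10 and 14 lay above every control, and on day 17 1 mouse did not. The difference was 0.24 ± 0.07 on day 10, 0.25 ± 0.07 on day 14 and 0.26 ± 0.07 on day 17, with an adjusted p in limma of 0.214, 0.131 and 0.0630. With the red cell marker mean as a covariate, whose control and day 17 values did not overlap, the day 17 difference was 0.046. Another 7 settings that kept all arrays, the threshold of 0.1 among them, put the difference past their threshold. Abcg1, the other exporter that liver X receptors raise, stood at 0.01 ± 0.06 on day 17, and the receptor Nr1h3 at -0.08 ± 0.10. Apoe, the main cholesterol carrier of the brain, stood at 0.04 ± 0.06 on day 10, 0.02 ± 0.05 on day 14 and -0.00 ± 0.05 on day 17. Cyp46a1, the neuronal enzyme that turns cholesterol into the oxysterol that leaves the brain, stood at -0.15 ± 0.08 on day 10, -0.21 ± 0.08 on day 14 and -0.23 ± 0.08 on day 17, with an adjusted p in limma of 0.135 on day 17.

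**Figure D5:**
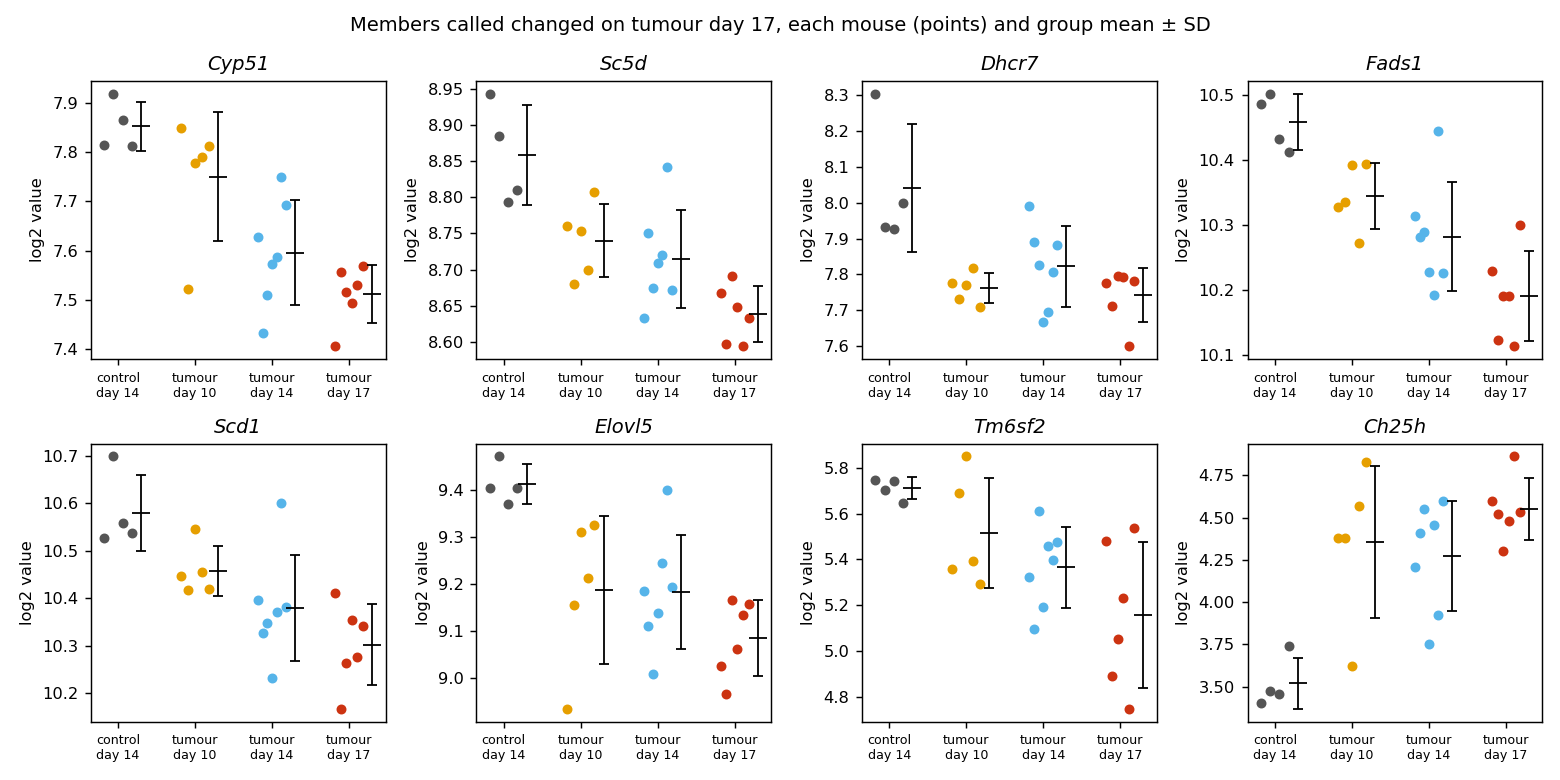
Log2 values of the 8 genes that passed the adjusted test on day 17, 1 point per mouse with the group mean ± SD in black, for control and tumour days 10, 14 and 17. The day 17 points of all 8 genes lie outside the control range, above it for Ch25h and below it for the other 7.

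Between tumour days 0 of the 39 genes passed the adjusted test, and over all genes 0% did so between days 17 and 10 or days 17 and 14, and 0.00531% (lower) between days 14 and 10. At an unadjusted p of 0.05 in limma, 13 of the 39 were lower and 2 higher on day 17 than on day 10, against 5.22% and 3.08% of all genes. The 13 were 7 sterol enzymes, 5 fatty acid enzymes and Tm6sf2, and the 2 higher were Srebf1 and Lss. The difference was -0.24 ± 0.06 for Cyp51, -0.15 ± 0.05 for Fads1 and 0.30 ± 0.08 for Srebf1, with adjusted p values in limma of 0.290, 0.431 and 0.294. Between days 14 and 10, 4 were lower and 1 higher at the unadjusted p, against 4.09% and 3.04% of all genes, and between days 17 and 14, 0 and 0, against 2.35% and 1.82%. The median of the sterol enzymes was -0.12 on day 17 against day 10 and -0.05 on day 17 against day 14, and that of the fatty acid enzymes -0.15 and -0.06.

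Among 112 further genes of the pathway, measured from lists of neighbouring functions, 0 passed the adjusted test on day 10, 1 on day 14 (higher) and 4 on day 17 (3 lower, 1 higher), against the shares of all genes given for the 39. The counts lower in mean below are read against the 53.7% of all genes and 63% of genes above background that were lower on day 17. Of 8 other genes of sterol synthesis and its side branches 0 passed on any day, and 8 had a lower mean on day 17. Erg28, a scaffold of sterol demethylation, stood at -0.17 ± 0.05 and Nus1, of the dolichol branch, at -0.17 ± 0.05. Of 15 genes of sterol uptake and trafficking 0 passed, with 13 lower in mean on day 17; the transporter Gramd1b stood at -0.15 ± 0.06 and Osbpl2 at -0.10 ± 0.05. Of 13 other regulators 0 passed, with 9 lower in mean on day 17, a share near that background; Erlin1, a membrane protein of the endoplasmic reticulum, stood at -0.23 ± 0.08 and Nfya, a subunit of the CCAAT-binding NF-Y, at -0.18 ± 0.07.

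The genes that passed lay in the fatty acid and lipoprotein lists. Lower in mean on day 17 were 25 of 32 other fatty acid genes, 15 of 23 of oxidation and binding, and 13 of 21 of lipoproteins and efflux. The shares of the oxidation and lipoprotein lists, 65.2% and 61.9%, were near the 63% of genes above background. Of 32 other fatty acid genes 1 fell on day 17, Acsl6, the long-chain acyl-CoA synthetase of brain, from 8.88 ± 0.04 (SD, n = 4) in controls to 8.65 ± 0.05 (SD, n = 6), a difference of -0.23 ± 0.05 (adjusted p in limma 0.0220). Of 23 genes of fatty acid oxidation and binding 2 fell, Hadha, the alpha subunit of the mitochondrial trifunctional protein, by 0.21 ± 0.05 on the log2 scale, and Fabp7, the fatty acid-binding protein of astrocytes and radial glia, by 0.75 ± 0.13 on the log2 scale. Fabp7 went from 11.08 ± 0.06 (SD, n = 4) to 10.34 ± 0.24 (SD, n = 6), and the adjusted p in limma was 0.0369 for Hadha and 0.00470 for Fabp7. Of 21 other lipoprotein and efflux genes 1 rose, Apoc1, a small lipoprotein component made by astrocytes and macrophages, by 0.65 ± 0.12 on day 14 and 0.70 ± 0.13 on day 17 (adjusted p in limma 0.0194 and 0.00832).

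Some lists of markers of other cells and of neighbouring tissue differed in mean between groups, and their part in the falls above was not tested. Of the red cell markers 3 were measured, and all 3 were higher in mean on each day, with medians of 1.01, 1.69 and 2.10, and Alas2 and Slc4a1 passed the adjusted test on days 14 and 17. Their mean ran from 4.01 to 5.00 in the controls and from 5.63 to 6.86 on day 17. With that mean as a covariate 0 of the 39 genes passed on day 17, and the sterol and fatty acid medians were -0.17 and -0.11. Red cell means did not overlap between controls and day 17, so covariate and group can hardly be separated and this count says little. All 12 thalamus markers were lower in mean on each day (medians -0.48, -0.44 and -0.42, 0 called). Their mean stood at 7.60 and 7.18 in control replicates 3 and 1, 7.23 in tumour day 14 replicate 2 and 6.96 in tumour day 17 replicate 1. Control replicates 2 and 4 stood at 6.44 and 6.34, within the range of the tumour-bearing mice. Without these 4 arrays 0 of the 39 genes passed on day 17, the sterol median was -0.20, and Cyp51, Fads1 and Ch25h stood at -0.33, -0.27 and 0.93. Only control replicates 2 and 4 remained in that fit, so its count says little.

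Marker counts lower in mean are read against the 59.4%, 59.1% and 63% of genes above background that were lower on days 10, 14 and 17. Oligodendrocytes make much of the cholesterol of myelin. Of 11 of their markers, 3 were lower in mean on day 10, 9 on day 14 and 9 on day 17, with medians of 0.08, -0.15 and -0.14 and 0 called. Their mean ran from 8.55 to 8.95 in the controls and from 8.51 to 8.89 on day 17, so the groups overlapped. Of 10 astrocyte markers 5, 6 and 6 were lower in mean, with 0 called. Of 9 neuron markers all 9 were lower in mean on each day, with medians of -0.08, -0.08 and -0.09, and Nefl, a neurofilament gene, was called on day 17. Of 10 markers of endothelium and pericytes 8 were higher in mean on each day, with 0 called. Of 9 microglia markers 8, 5 and 1 were higher in mean, with 0 called, and their mean ran from 6.33 to 6.43 in the controls and from 6.17 to 6.44 on day 17. Of 6 markers of tanycytes and ependyma 4 were lower in mean on each day (medians -0.06, -0.09 and -0.15), and Tmem212, of ciliated cells, was called lower on day 17. Their mean ran from 5.45 to 5.92 in the controls and from 5.26 to 5.79 on day 17. Of 5 pituitary markers, of which 2 were above background, 3, 4 and 5 were higher in mean (median 0.45 on day 17), and of 7 meninges markers 7, 5 and 5 were (median 0.27 on day 10), with 0 called in either list.

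The arrays fell into a run of 9 and a run of 13 consecutive accessions, which the labels do not call a batch. Within the first run, with 1 control, the sterol median was -0.18, -0.24 and -0.27 on days 10, 14 and 17, and within the other run -0.08, -0.21 and -0.26. The fatty acid median was -0.07, -0.17 and -0.20 in the first run and -0.10, -0.15 and -0.24 in the other. With a term for the run in a fit of all 22 arrays, the number of the 39 genes called on day 17 was similar to that of the main fit. In each run alone 0 of the 39 passed the adjusted test. The first run has a lone control, assumed to vary like the other groups, so its count says little.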

How the data were processed

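RNA of 22 hypothalami was measured on whole-transcript arrays, 1 per mouse. The authors deposited log2 values made with RMA, as the submitters' processing notes name it. RMA corrects background, normalizes between arrays and summarizes probes, and compresses differences of low values. Not given in the sources used here are its version and the genome build. Of 35556 probe sets, 21218 were paired with 1 gene by the platform annotation, 1881 with several and 12457 were unnamed. As a measure of background, 1182 probe sets of olfactory and vomeronasal receptors were taken at their 95th percentile.

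Means of the 4 groups were estimated for every named gene over all arrays in one fit with limma 3.58.1 in R 4.3.3 (18 residual degrees of freedom). Tests were two-sided with Benjamini-Hochberg adjustment over 18820 genes, and 0.05 was the threshold. The labels give separate source mice but no batch. The number of arrays limits the precision. Values for every array are given for genes past the threshold, the 2 smallest F test p values per role, and Srebf1, Srebf2, Insig1 and Ch25h. Of the lists of further genes, those past the threshold (otherwise the 2 smallest F test p values) are named. The genes and lists were chosen with earlier results of these data known, and no test was made over a list. Alternatives changed the variance model, scaling, threshold, probe sets, covariates and arrays used. RefSeq names came from GRCm38.p6.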

Additional observations from a re-analysis of the deposited data

Results flagged for a closer look

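The groups checked were those of the genes whose values are given above, and of the means of the gene groups. In 68 groups of 4 to 7 values, 4 held a sample far from the others by Dixon's criterion, and chance gives about 1 in 20. Cyp51 stood at 7.52 in tumour day 10 replicate 2, against 7.78 for the nearest of that group. Scd1 stood at 10.55 in tumour day 10 replicate 3, against 10.45. Abca1 stood at 7.42 in control replicate 4, against 7.30. The mean of the 6 sterol sensing genes stood at 8.04 in control replicate 1, against 8.02.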

How the results depend on the processing

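Among the sterol and fatty acid synthesis medians and the 8 genes called on day 17, no setting run reversed a direction, and no scaling moved the median of all genes by more than 0.05. The number called on day 17 (8) was 16 at a threshold of 0.1, 18 with array weights, 15 with an intensity trend, 15 with trend and robust estimation, 5 after a second quantile normalization, 4 over all probe sets, 3 with only the groups compared or with the thalamus marker mean as a term in the model (covariate), and 0 with the red cell covariate, in either accession run or without the 4 arrays highest in thalamus markers. Leaving out 1 array gave 1 to 14: control replicates 1, 2 and 3 left 2, 1 and 4, day 17 replicates 2, 3, 4 and 5 left 3, 5, 3 and 4, and day 17 replicate 6 left 14. On day 14 (0) the count was 2 at a threshold of 0.1, with array weights, with trend and with trend and robust estimation, 1 with the oligodendrocyte marker mean as a covariate, and 0 to 4 when 1 array was left out, with 4 without tumour day 14 replicate 6. On day 10 (0) it was 1 with array weights and 0 to 1 when 1 array was left out. The F test count (2) was 4 with array weights, 5 with trend, 4 with trend and robust estimation, 1 with the thalamus covariate, 0 to 4 when 1 array was left out, and 0 over all probe sets, with the red cell covariate, in either run or without the 4 arrays. Of the further pathway genes (4 on day 17), 7 passed at 0.1, 9 with array weights, 2 with only the groups compared or with the thalamus covariate, 2 to 5 when 1 array was left out, and 0 with the red cell covariate, in either run or without the 4 arrays.

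The sterol median was -0.13 on day 14 and -0.17 on day 17 with the red cell covariate, -0.18 on day 10 in the first run and -0.20 on day 17 without the 4 arrays. Left-out arrays gave -0.14 to -0.08, -0.23 to -0.17 and -0.31 to -0.21 on days 10, 14 and 17. The fatty acid median was -0.088 and -0.11 on days 14 and 17 with the red cell covariate, and -0.11 to -0.06, -0.20 to -0.16 and -0.24 to -0.20 with left-out arrays. Ch25h kept its day 17 call in all 22 left-out fits, Cyp51 lost it in 1, Fads1 in 2, Sc5d in 5, Elovl5 in 6, Scd1 in 7, Dhcr7 in 10 and Tm6sf2 in 16. Between tumour days 0 were called in every setting run.

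The labels number the mice within groups. Over 28 pairs of the same number the deviations correlated from -0.24 to 0.29, with a median of 0.08 and 12 over 0.1, and over 151 pairs of different numbers the median was -0.01 with 32 over 0.1. Of 22 arrays 8 correlated best with their own number, and same-number pairs lay over 0.1 more often than the others. In each group the lower numbers lay in the first run of arrays and the higher numbers in the other. Number and run are therefore partly mixed, and neither these correlations nor a fit with the number can separate them. Whether equal numbers mark a shared factor was not tested. The labels do not name pairs, so the main fit took none, and this choice changed the counts. With the number as a replicate block, 18 genes passed on day 17, 3 on day 14, and 8 of the further genes. The settings with single runs, and without the 4 arrays, were chosen after seeing the data. Control and day 17 red cell means did not overlap, and the fit without the 4 arrays kept only control replicates 2 and 4. Counts from the red cell fit and from the fit without the 4 arrays therefore say little. The first run has 1 control, so its counts of 0 say little. Controls are few and of 1 day, and Ch25h lay below background in them.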
